A study of Caenorhabditis elegans with 52 samples.

Results

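Gene expression was measured in young adult Caenorhabditis elegans hermaphrodites of the puf-8 fbf-1 genotype (PF) after 1, 2, 4 or 6 h in U0126 or in DMSO. There were 4 U0126 libraries and 4 DMSO libraries, 1 of each at every hour, out of 52 libraries in the series. All 8 came from whole worms raised from synchronized larvae on plates and then moved into 1 mL of liquid S medium with OP50 bacteria, which held 100 uM U0126 in DMSO or DMSO alone. Both treatments therefore shared the genotype, the liquid culture, the bacteria and the vehicle. The labels do not name the alleles, do not say how many worms went into a library, and do not say whether libraries came from separate cultures, so the spread behind the p-values is that between these libraries and may be technical. The responses of 2 other genotypes in the same series were set beside it: puf-8; lip-1 worms (PL, 18 libraries at 1, 2, 4 and 6 h) and wild-type N2 worms (12 libraries at 1, 2 and 6 h).

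U0126 inhibits MEK, the kinase that activates the MAP kinase ERK in the RAS-ERK pathway. In the C. elegans germline the ERK homolog MPK-1 is needed for meiotic progression, for oocyte maturation and for the sperm fate. Both genes lost in PF worms encode PUF proteins, which bind RNA and repress their target mRNAs in germ cells. LIP-1, lost in PL worms, dephosphorylates MPK-1. According to the study's design text, genotypes that can and cannot be sexually reprogrammed were compared, and the question here is which mRNAs differed with the inhibitor in PF worms. Foreign small molecules are commonly handled in worms by cytochromes P450, which oxidize them, by transferases that attach sugar or glutathione, and by membrane pumps that export the products.

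The 2 genes named in the genotype were low in PF worms. Median puf-8 was 5.61 CPM (counts per 1000000 counts assigned to genes, with library sizes scaled by TMM) over 8 PF libraries, against 160.8 CPM over 12 N2 libraries. Median fbf-1 was 1.17 CPM in PF worms, against 16.17 CPM in PL worms and 32.8 CPM in N2 worms. The gene lip-1, which the PF genotype does not name, was also lower, at a median of 5.52 CPM against 73.1 CPM in N2. A low level against N2 alone therefore does not show a mutation. Sperm genes marked the tissue: the summed level of the major sperm protein genes was 6851 to 14026 CPM per PF library, against 1793 to 7723 CPM per PL library and 2.44 to 193 CPM per N2 library. For these medians and sums by genotype, PF, PL and N2 libraries were filtered and scaled together. They differ from the PF values further on, which were scaled within PF. The 41 oocyte and eggshell genes summed to 5881 to 8726 CPM in PF worms, against 1965 to 10379 CPM in PL worms and 22761 to 31368 CPM in N2 worms. The PL libraries were not uniform: molting genes summed to 379 to 2751 CPM in them, against 385 to 508 CPM in PF. Yolk protein genes summed to 13088 to 258421 CPM in PL and 166254 to 260493 CPM in PF. PL ranges may thus mix stages as well as genotype, which was not tested. RNA came from whole animals, so fewer cells of a type and less RNA per cell cannot be told apart. The PF libraries held 5370270 to 15996513 counts, the lowest in U0126 at 1 h and the highest in DMSO at 6 h. The U0126 1 h library stood apart from the other 7, with a TMM factor of 0.848 against 0.979 to 1.07. Its 81 ribosomal protein genes summed to 110618 CPM and its 91 cuticle collagen genes to 139297 CPM, against 45458 to 75108 CPM and 41697 to 95123 CPM in the other libraries, of which DMSO at 1 h was the highest.

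Few genes passed the test, and among the gene lists examined those of genes that handle foreign molecules held the most calls. Of 13893 genes tested, 89 were called (0.641 percent) at an adjusted p under 0.05 by edgeR's quasi-likelihood test with Benjamini-Hochberg adjustment. Of these 73 rose with U0126 (0.525 percent) and 16 fell (0.115 percent). Cytochromes P450 and glucuronosyltransferases made up 28 of the 73 rises, and no gene on the lists for the RAS-ERK pathway, germline sex determination, oocytes or sperm was called. The lists were chosen with earlier results of these data known, and 38 of the 73 rises were on any of them. The median log2 fold change over all genes was -0.01. The 4 U0126 libraries all lay above the 4 DMSO libraries for 58 of the 73 rises, beside 1.85 percent of all genes tested (3.09 percent in either direction). For the falls, all U0126 libraries lay below all DMSO libraries for 7 of 16, beside 1.24 percent of all genes. An unadjusted p under 0.05 was found for 1158 genes.

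The size of the call depended on the libraries. Without the pair of libraries at 2 h, 22 genes were called, 21 of them among the 89, and without the pair at 4 h 42 were called, 37 of them among the 89. Without the pair at 6 h there were 172 calls and without the pair at 1 h 131, which held 87 and 76 of the 89.

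The largest rises were genes that were close to silent in DMSO. The largest was cyp-35A4, a cytochrome P450. Its level was 2.20, 57.3, 181 and 1495 CPM in U0126 at 1, 2, 4 and 6 h, against 0, 0.216, 1.02 and 0.383 CPM in DMSO. The lowest U0126 library was above the highest DMSO library, and the log2 fold change was 10.23 (SE 0.61, adjusted p 1.63e-05, edgeR quasi-likelihood test, n = 4 libraries in each treatment). Its size depended on the hours: leaving out an hour gave 7.59 to 11.26. A second member of the cyp-35 family, cyp-35B2, had 1.32, 9.20, 3.44 and 411 CPM in U0126, against 0, 0, 0.170 and 0.959 CPM in DMSO, a log2 fold change of 8.55 (SE 0.40). Most of its U0126 reads came from the 6 h library, and without that pair its log2 fold change was 6.23. The P450 gene cyp-34A7 was at 44.4, 142, 83.7 and 268 CPM in U0126, against 0.317, 0.432, 0.681 and 0.128 CPM in DMSO. It was high from the first hour on (log2 fold change 8.75, SE 0.40, adjusted p 2.66e-06). The P450 gene cyp-33C1 was at 9.23, 39.9, 39.2 and 225 CPM in U0126, against 0.159, 0.108, 0.170 and 0 CPM in DMSO. Since the DMSO libraries together held 3 reads of it, its change is given as a ratio of pooled counts, 1047 with a counting interval of 358 to 5079 (exact, 95 percent, counting error only).

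Other large rises included genes of a conjugating and of a hydrolysing enzyme. The glutathione transferase gene gst-44 was at 13.8, 62.4, 24.8 and 138 CPM in U0126, against 0.793, 0.324, 0 and 0.128 CPM in DMSO (log2 fold change 7.88, SE 0.57). The carboxylesterase gene cest-35.2 was at 21.8, 141, 268 and 1128 CPM in U0126, against 0.159, 2.16, 3.23 and 2.43 CPM in DMSO (log2 fold change 7.29, SE 0.46). Both were higher at every hour, and cest-35.2 had its lowest U0126 value at 1 h. The gene R05D8.9, next to the dehydrogenase gene dhs-14 on chromosome V, was at 26.8, 91.9, 131 and 418 CPM in U0126, against 0.793, 1.94, 0.851 and 0.575 CPM in DMSO. B0213.23 had 5.06, 12.11, 8.87 and 26.8 CPM in U0126 and a single read in the DMSO libraries, a pooled ratio of 522 with a counting interval of 93.2 to 20668. It is annotated as a small nuclear RNA that overlaps cyp-34A7 on the opposite strand in the WBcel235 annotation, so its reads and those of cyp-34A7 cannot be told apart without strand.

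No role is given here for the rest of the 12, because the annotation was used for names, gene types, overlaps and gene order only. E02C12.10 had the smallest adjusted p of all genes: 43.7, 182, 250 and 966 CPM in U0126 stood against 0, 0.432, 0 and 0.959 CPM in DMSO (log2 fold change 9.86, SE 0.31, adjusted p 1.52e-07, edgeR). E02C12.6 was at 159, 345, 507 and 739 CPM in U0126, against 1.11, 3.02, 1.36 and 0.511 CPM in DMSO. E02C12.6 thus reached over 100 CPM within 1 h, and no DMSO library exceeded 3.02 CPM. C52A10.4, a noncoding RNA gene, had a log2 fold change of 7.44 (SE 0.74). F48G7.12 had 2 reads in DMSO, a pooled ratio of 305 with a counting interval of 83.9 to 2524. Of the 12 genes, 11 were called whichever hour was left out, and the exception was F48G7.12 without the 2 h pair.

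**Figure D1:**
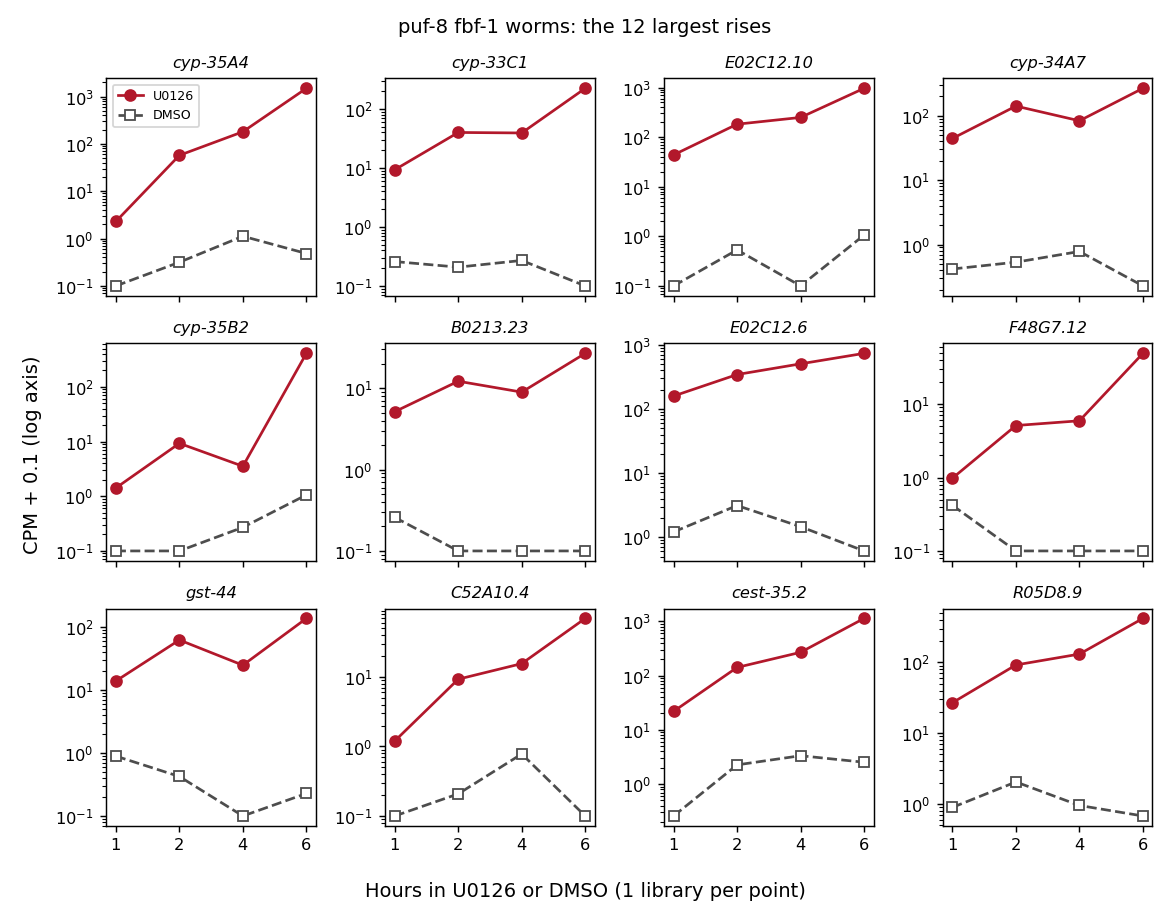
Level of the 12 genes with the largest rises in puf-8 fbf-1 worms, in CPM + 0.1 on a log axis, by hour, with 1 library per point (filled circles, U0126; open squares, DMSO). Every U0126 library lay above every DMSO library for each of the 12, and the U0126 values were highest at 6 h, 1495 CPM for cyp-35A4.

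Cytochromes P450 were the list with the most rises. Of 67 P450 genes tested 17 rose and none fell, and the list's median log2 fold change was 1.46, also with its 2 genes without DMSO reads set at their lower bounds, against -0.01 for all genes. The summed level of the list was 1063, 2541, 2612 and 12113 CPM in U0126 at 1, 2, 4 and 6 h, against 639, 635, 716 and 622 CPM in DMSO, so that the sum was flat in DMSO and largest in U0126 at 6 h. The rises fell into 5 subfamilies: 5 of 9 cyp-35 genes, 4 of 7 cyp-34 genes, 4 of 16 cyp-33 genes, 3 of 11 cyp-13 genes and 1 of 5 cyp-14 genes. None of the other 19 P450 genes, from 10 subfamilies, was called. For cyp-13A3 and cyp-13A8 no read was found in DMSO, and their pooled levels in U0126 were at least 49.3-fold and at least 47.1-fold higher, against a floor of 3 reads over the DMSO libraries. Near-identical copies within the cyp-13A, cyp-34A and cyp-35A groups may share reads, so the split among copies is uncertain. The P450 count was 5 without the 2 h pair and 8 with a robust fit.

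P450 enzymes draw electrons from NADPH through a reductase, encoded in worms by emb-8, which was looked up after its values were seen. It stood at 285, 405, 308 and 690 CPM in U0126, against 159, 132, 172 and 136 CPM in DMSO. All U0126 libraries exceeded all DMSO libraries, and emb-8 rose by a log2 fold change of 1.41 (SE 0.23, adjusted p 0.0213, edgeR).

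Glucuronosyltransferases, which attach a sugar to small molecules, followed. Of 60 tested 11 rose and none fell, with a median log2 fold change of 0.60. Their summed level was 3106, 4034, 3401 and 6916 CPM in U0126, against 2619, 2736, 1593 and 1387 CPM in DMSO. Unlike the P450 sum, the DMSO sum was lower at 4 and 6 h than at 1 and 2 h. ugt-16 was at 85.5, 292, 170 and 385 CPM in U0126 and 13.8, 14.3, 19.2 and 6.07 CPM in DMSO (log2 fold change 4.03, SE 0.46, adjusted p 0.00263, edgeR). The other 3 with the smallest adjusted p were ugt-36, ugt-8 and ugt-13, with log2 fold changes of 5.92, 2.52 and 1.89. No ugt gene was called without the 2 h pair and 4 were without the 4 h pair, against 17 and 18 without the 1 h and the 6 h pair.

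The other detoxification lists gave few calls, beside 0.525 percent of all genes called higher. Glutathione transferases had 2 rises among 38 genes, gst-44 and gst-5. The level of gst-5 was 126.4, 272, 274 and 1286 CPM in U0126 and 59.96, 33.7, 60.4 and 44.6 CPM in DMSO (log2 fold change 2.76, SE 0.49). Short-chain dehydrogenases had 2 rises among 29, dhs-14 at 2.76 and dhs-23 at 3.58 log2. The transporter pgp-9, an ATP-driven export pump of the P-glycoprotein family, was the 1 rise among 29 pump genes. It was at 175, 760, 567 and 1346 CPM in U0126, against 56.8, 86.6, 57.0 and 28.7 CPM in DMSO, without overlap (log2 fold change 3.38, SE 0.50, adjusted p 0.0127, edgeR). cest-35.2 was the 1 rise among 33 sulfotransferase, esterase and other conjugation genes, whose median log2 fold change was -0.20. None of 5 flavin monooxygenases and none of 170 nuclear hormone receptors, the class that holds known worm regulators of detoxification genes, was called. Over all genes 0.641 percent were called, a share at which such lists may hold none. gst-5, dhs-14, dhs-23 and pgp-9 were not called without the 2 h pair, nor without the 4 h pair. Of the nuclear hormone receptors 5 were called higher and 1 lower in PL, beside 1.04 and 0.609 percent of all genes there. In N2 1 was called lower, beside 0.267 percent.

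**Figure D2:**
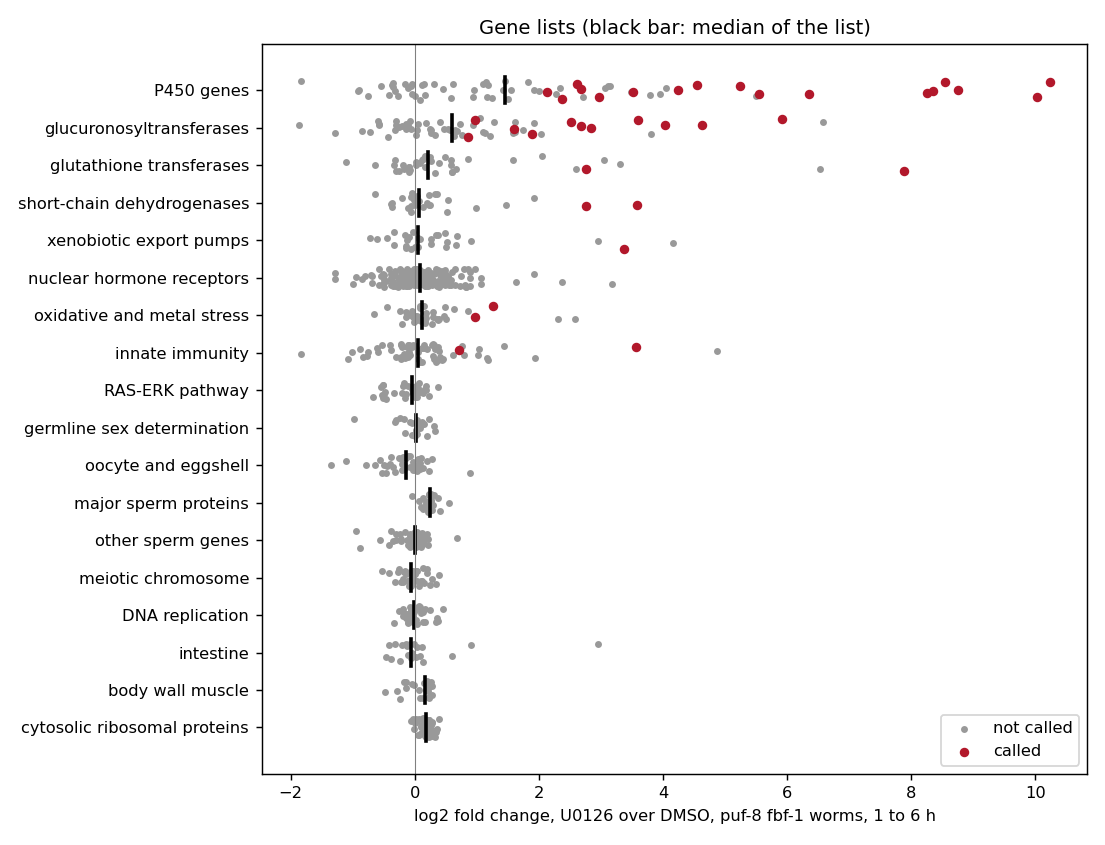
Log2 fold change of U0126 over DMSO in puf-8 fbf-1 worms for each tested gene of 18 gene lists, with called genes in red and the median of each list as a black bar. Called genes lie to the right of 0 and are most frequent in the P450 list (17 of 67) and the glucuronosyltransferase list (11 of 60).

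Genes of the inhibited pathway itself were not called in PF, beside 0.641 percent of all genes. Of 37 RAS-ERK pathway genes none passed, and the median was -0.04. A list this short may hold no call at that share. With no filter 1 pathway gene was called lower, and without the 6 h pair 1 was. Among the kinase genes mpk-1, which encodes ERK, was at 41.1, 45.3, 43.02 and 49.2 CPM in U0126 and 45.2, 43.9, 42.9 and 38.4 CPM in DMSO (log2 fold change 0.07, SE 0.13, adjusted p 0.933, edgeR). The values for the MEK gene mek-2, the RAF gene lin-45 and the RAS gene let-60 were 0.04, 0.18 and -0.15 log2, and none passed the test. The signs for mpk-1 and mek-2 turned when the 6 h or the 1 h pair was left out. lip-1, the phosphatase gene, was at 3.08, 4.54, 4.90 and 4.31 CPM in U0126 and 6.504, 5.08, 7.997 and 4.99 CPM in DMSO. Every U0126 library was below every DMSO library, but the difference did not pass (log2 fold change -0.51, SE 0.30, adjusted p 0.732). mRNA levels do not report the activity of these kinases, which was not measured here. None of 15 genes of other MAP kinase pathways was called. Of the RAS-ERK pathway genes 3 were called lower with U0126 in PL, beside 0.609 percent of all genes there. In N2 1 was called lower, beside 0.267 percent.

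Germline genes gave no call, beside 0.641 percent of all genes called, a share at which lists this short may hold none. None of 26 sex determination genes passed. Among them fog-1 and fog-3, which specify sperm, differed by 0.00 and -0.31 log2, tra-2, which promotes the female fate, by -0.24, and fem-3, which promotes the male fate, by -0.98 (SE 0.48, adjusted p 0.655, edgeR). fem-3 was at 1.10, 1.51, 2.38 and 3.66 CPM in U0126 and 5.71, 5.18, 3.23 and 3.13 CPM in DMSO, so that the treatments overlapped and crossed at 6 h. gld-1, a translational repressor needed for oocyte development, differed by 0.19 log2. The yolk receptor gene rme-2, an oocyte marker, was at 13.2, 16.8, 17.7 and 15.8 CPM in U0126 and 16.02, 22.8, 27.7 and 21.5 CPM in DMSO. It was lower at each hour, with overlap, and its log2 fold change of -0.46 (SE 0.15) had an adjusted p of 0.367. The 41 oocyte and eggshell genes had a median of -0.15 and the 53 sperm genes other than major sperm proteins a median of 0.00, with none called in either list. Of the 29 major sperm protein genes 28 were above 0, with a median of 0.24 and none called. Their summed level was highest in the U0126 1 h library, 12625 CPM, which also had the highest ribosomal and collagen sums, and its part in this shift was not tested. No gene was called among 43 meiotic chromosome genes, 40 DNA replication genes, 24 P granule genes, 20 stem cell and meiotic entry genes and 10 PUF genes. Above 0 were 15, 18, 4, 7 and 5 of these, in that order, with a P granule median of -0.15. Of the lists before them, 14 of 41 oocyte, 25 of 53 other sperm and 16 of 26 sex determination genes were above 0. The direction of a list was not tested. In counts simulated for this comparison over 13893 genes, the test called 62.7 percent of the 2-fold changes and 100 percent of the 4-fold changes that had been put in. Every simulated gene had the same dispersion and no change with the hour, and low genes received no change. These shares are therefore not the power of the test for the real germline genes.

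The mutated genes had low counts in both treatments. fbf-1 was at 3.52, 1.28, 1.85 and 3.13 CPM in U0126 and 0.317, 0.540, 0.851 and 0.320 CPM in DMSO. The treatments did not overlap, and the log2 fold change of 2.22 (SE 0.66) did not pass, at an adjusted p of 0.27 with edgeR. puf-8 was at 6.81, 3.84, 7.28 and 10.2 CPM in U0126 and 4.28, 4.00, 5.78 and 3.90 CPM in DMSO, which overlapped (adjusted p 0.688).

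Stress and tissue genes were mostly uncalled, beside 0.641 percent of all genes called, a share at which short lists may hold none. Among 40 oxidative and metal stress genes cdr-2, of a cadmium-responsive family, rose by 1.25 log2 and cysl-2, a cysteine synthase relative that takes part in cyanide detoxification, by 0.98. Among 64 immunity genes the fasting-induced lipase gene fil-1 rose by 3.57 and the saposin-like gene spp-8 by 0.72. cdr-2, cysl-2 and fil-1 lost the call without the 2 h or the 4 h pair, and spp-8 without the 1 h pair too. The arginine kinase gene argk-1 was the 1 fall among 74 fat and energy genes, at 35.2, 64.4, 58.6 and 28.5 CPM in U0126 and 58.1, 109, 103.6 and 91.7 CPM in DMSO. Its log2 fold change was -0.995 (SE 0.17, adjusted p 0.024), and it was lower within each hour although the ranges overlapped. It too lost the call without the 2 h or the 4 h pair. No call was made among 19 cytosolic chaperones, 27 unfolded protein response genes, 6 yolk proteins, 91 collagens, 25 molting genes, 18 histones or 81 ribosomal protein genes, of which 77 were above 0 with a median of 0.19. Nor was any made among the markers of intestine (22), body wall muscle (24), pharynx (13), neurons (26), somatic gonad (19), embryos (8) and male soma (8). The intestine list summed to 13646 to 19490 CPM in U0126 and 13584 to 15328 CPM in DMSO.

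For most of the rises the ratio was largest at the last hour, without a steady climb of the median. The median log2 ratio of the 73 genes was 1.37, 3.07, 2.44 and 4.82 at 1, 2, 4 and 6 h, and 67 of the 73 had their largest ratio at 6 h. All but 1 gene were higher at all 4 hours, as 8 percent of all genes were and 8.23 percent were lower at all 4, and the exception was cyp-13A8, which had no read at 1 h in either library. The 16 falls had medians of -1.40, -1.78, -1.47 and -1.92, without such a trend. Across all genes the SD of the log2 ratio was 0.86, 0.75, 0.72 and 0.99 at the 4 hours, and with 1 library per treatment the ratio at 1 hour has no replicate check.

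**Figure D3:**
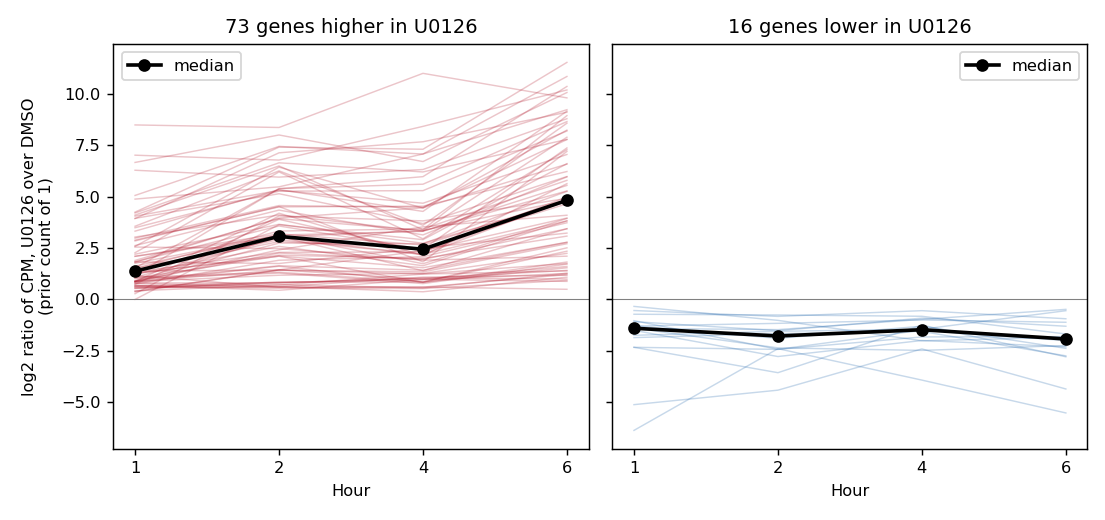
Log2 ratio of CPM, U0126 over DMSO, at each hour for the genes called in puf-8 fbf-1 worms, with 1 thin line per gene and the median in black. The median of the 73 rises was 1.37 at 1 h and 4.82 at 6 h, and the median of the 16 falls stayed between -1.92 and -1.40.

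A change of the response with time was tested as a slope per doubling of the hour. It was called for 57 genes (0.41 percent), with 45 positive slopes (0.324 percent) and 12 negative ones (0.0864 percent). Among the 73 rises, 10 had a called positive slope. Of these, cyp-35A3 gained 3.05 log2 units per doubling (SE 0.41, adjusted p 0.0173, edgeR), with 9.89, 99.6, 328 and 2091 CPM in U0126 against 3.33, 2.27, 5.10 and 1.47 CPM in DMSO. dhs-14 had the smallest adjusted p of the rises, 0.000674, at a slope of 1.25 (SE 0.10). It stood at 144, 356, 579 and 952 CPM in U0126 and 79.5, 66.9, 50.02 and 55.6 CPM in DMSO, so that its U0126 level went up at each step and its DMSO level did not.

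Other genes with a slope were not called as an average over the 4 hours. C40H1.8 was at 1.10, 4.89, 18.4 and 93.5 CPM in U0126 and 2.06, 0.540, 2.04 and 0.383 CPM in DMSO. lbp-8, a lipid-binding protein gene, was at 0, 1.75, 8.21 and 28.6 CPM in U0126 and 0.952, 1.51, 1.02 and 1.98 CPM in DMSO, and C34H4.2 at 20.2, 58.3, 192 and 442 CPM against 27.4, 45.3, 47.1 and 11.5 CPM. In all 3 the U0126 library was below the DMSO library at 1 h and far above it at 6 h. The slope of the collagen gene dpy-4 rested on 1 library, DMSO at 1 h, which held 45.2 CPM where the other 7 held at most 1.40.

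Negative slopes included dod-3, a gene found downstream of the insulin-pathway factor DAF-16, and lys-7, a lysozyme gene of the immune response. dod-3 was at 16.486, 1.28, 0.927 and 0.261 CPM in U0126 and 19.2, 9.07, 22.8 and 58.2 CPM in DMSO (slope -2.56, SE 0.24, adjusted p 0.00216, edgeR). lys-7 was at 292, 194, 177 and 73.7 CPM in U0126 and 249, 243, 445 and 484 CPM in DMSO (slope -1.09, SE 0.14, adjusted p 0.0151). For both genes the treatments were close at 1 h and apart at 6 h. R11G10.3, F48D6.4 and dhs-26 had slopes of -1.18, -0.86 and -0.71. The slope calls depended on the first hour: without the 1 h pair edgeR called 0 slopes, with 981 at an unadjusted p under 0.05. Without the 4 h pair it called 755.

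The falls were smaller than the rises. ced-11, which encodes an ion channel relative that acts in dying cells, was at 0, 2.79, 0.132 and 0 CPM in U0126 and 9.99, 15.2, 3.74 and 5.50 CPM in DMSO, without overlap (log2 fold change -3.94, SE 0.65, adjusted p 0.0231, edgeR). clec-1, a C-type lectin gene, had the smallest adjusted p of the falls: 75.2, 94.0, 72.7 and 49.1 CPM in U0126 stood against 273, 298, 214 and 330 CPM in DMSO. It fell by 1.95 log2 (SE 0.19, adjusted p 0.000797), and it was the 1 gene of the 12 largest falls that was called whichever hour was left out. A second C-type lectin gene, clec-7, was at 5.06, 4.08, 1.06 and 0.914 CPM in U0126 and 13.5, 21.4, 6.47 and 4.79 CPM in DMSO, lower at each hour with a small overlap.

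The putative acyltransferase genes oac-20 and oac-32 had log2 fold changes of -1.63 and -1.34. oac-32 was at 12.97, 56.4, 9.13 and 10.3 CPM in U0126 and 43.8, 165.5, 25.2 and 15.1 CPM in DMSO, so its level varied more with the hour than with the inhibitor. The secreted SCP-like gene scl-2 was at 54.5, 49.02, 31.6 and 55.8 CPM in U0126 and 69.0, 99.5, 128 and 201 CPM in DMSO (log2 fold change -1.32). Its U0126 libraries were all below its DMSO libraries, and the distance grew with a slope of -0.65 (adjusted p 0.0458). The others of the 12 were the dipeptidyl peptidase relative dpf-6 (-2.42), the dihydropyrimidinase gene dhp-1 (-1.79) and F01D4.8, B0281.3, F22B7.9 and Y69A2AL.2 (-2.25, -2.11, -1.22 and -1.14). Of the 12, 10 were not called without the 2 h pair, 9 without the 4 h pair and 3 without the 1 h pair.

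**Figure D4:**
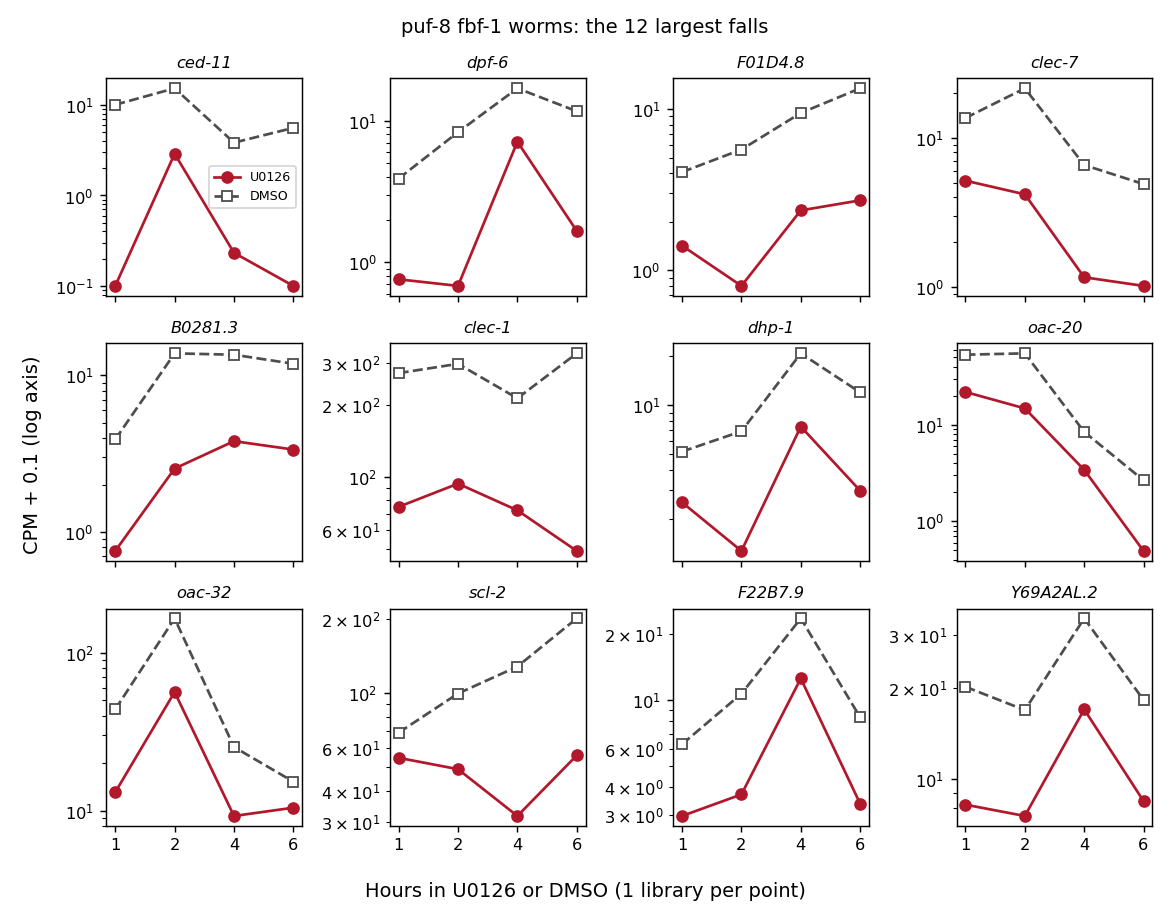
Level of the 12 genes with the largest falls in puf-8 fbf-1 worms, in CPM + 0.1 on a log axis, by hour, with 1 library per point (filled circles, U0126; open squares, DMSO). The U0126 library is below the DMSO library of the same hour in every panel, and for clec-1 no U0126 library exceeded 94.0 CPM.

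Most of the PF rises were also called in PL worms, and fewer passed in N2 worms. In PL worms, which share no library with PF, U0126 against DMSO over the same hours gave 254 calls among 15441 genes (1.64 percent), 160 higher (1.04 percent) and 94 lower (0.609 percent). All 73 PF rises were positive in PL and 64 of them were called higher there, beside 59.1 percent of all genes with the same sign in both genotypes. In N2 worms over 1, 2 and 6 h there were 97 calls (0.646 percent), 57 higher (0.38 percent) and 40 lower (0.267 percent). All 73 PF rises were positive in N2 and 43 were called higher, beside 52.7 percent of genes with the same sign. Of the 16 PF falls, 15 were negative in PL with 10 called lower, and 16 were negative in N2 with 7 called lower. None of the 89 was called in the opposite direction.

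The fold changes tended to be larger in PF, and no difference of size among the 89 genes passed a test. The median log2 fold change of the 73 rises was 2.97 in PF, 2.29 in PL and 2.30 in N2, and 68 of 73 were larger in PF than in each of the others. The PF values came from the fit of PF libraries alone, and the PL and N2 values from the joint fits, in which N2 had no 4 h library. The genes were chosen by their call in PF, so their sizes in PF are not an independent measure. A direct test of the difference, PF minus PL, called 0 of 15441 genes with edgeR (851 at an unadjusted p under 0.05), and 1 with DESeq2, fbf-1. For dhs-14 the difference PF minus PL was 0.68 log2, with a 95 percent interval of -0.42 to 1.78. For clec-1 it was -0.27 (-0.79 to 0.26), for cyp-33C2 -0.08 (-1.41 to 1.25) and for emb-8 0.25 (-0.55 to 1.05), the last 2 picked after their values were seen. Differences were bounded less well for low genes: that of cyp-35B2 was 5.07 (1.25 to 8.89, adjusted p 0.752). In counts simulated for this comparison over 15441 genes, 23.9 percent of 2-fold and 92.5 percent of 4-fold differences were called. Those counts had the same dispersion for all genes and no baseline difference by hour or genotype. What share of such differences would be called in the real PF and PL libraries was not tested. oac-32 was the 1 fall without a negative value in PL, at -1.34 log2 in PF, 0.00 in PL and -0.10 in N2, and the differences did not pass (adjusted p 0.704 against PL and 0.438 against N2).

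**Figure D5:**
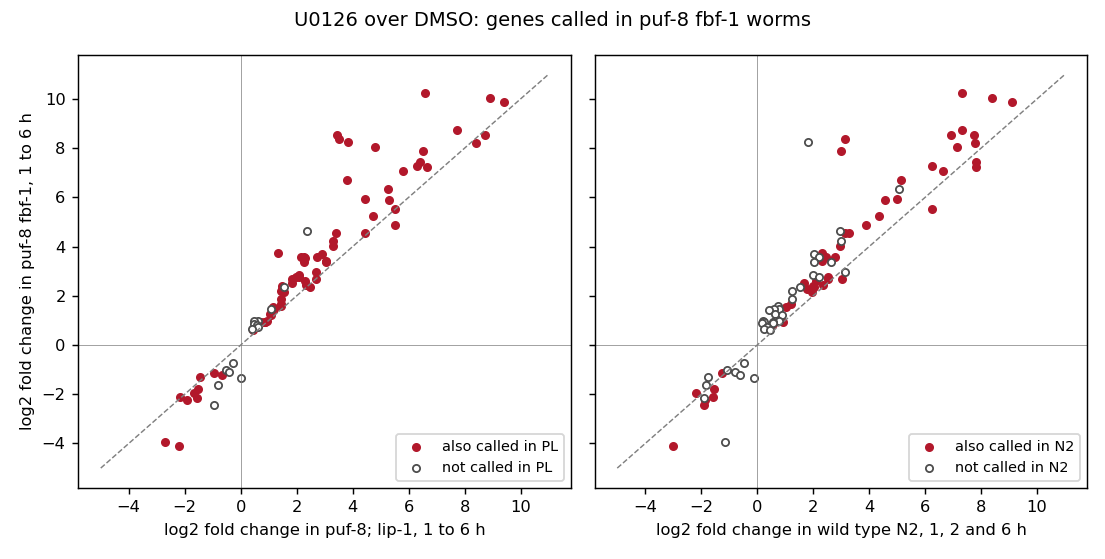
Log2 fold change of U0126 over DMSO of the 89 genes called in puf-8 fbf-1 worms (PF, vertical axis) against that in puf-8; lip-1 worms (PL, left) and N2 worms (right), with filled points called in both genotypes and the line of equal change dashed. Points right of 0 lie mostly above the line, 68 of 73 in each panel.

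Against N2 the difference was called for 3 of 15009 genes (0.02 percent), 2 of them positive (0.0133 percent) and 1 negative (0.00666 percent). T09B9.1 differed by 5.04 log2 (SE 0.51, adjusted p 0.00103, edgeR), F12E12.1 by 3.40 (SE 0.50, adjusted p 0.0481) and F02E8.4 by -3.12 (SE 0.40, adjusted p 0.0152). All 3 averaged at most 2.45 CPM in PF and at least 9.27 CPM in N2. T09B9.1 averaged 1.23 CPM in U0126 and 0.0256 CPM in DMSO in PF worms over 1, 2 and 6 h, and 24.8 and 25.7 CPM in N2 worms. The PF values rested on 26 reads in U0126 and 1 read in DMSO, a pooled ratio of 38.1 with a counting interval of 6.25 to 1561. For F12E12.1 there were 50 and 7 reads, and for F02E8.4 3 and 47 reads, in the PF U0126 and DMSO libraries. None of the 89 genes was among the 3. Without the PF pair at 6 h T09B9.1 kept the call and the other 2 lost it, while 26 genes in all were called. With a replicate block for same-numbered U0126 and DMSO libraries, only T09B9.1 was called.

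Many of the rises lay on one chromosome. Of 68 protein-coding rises placed in the RefSeq WBcel235 gene order, 43 were on chromosome V (63.2 percent), against 2502 of 13020 tested genes placed (19.2 percent). Of the 16 falls 5 were on chromosome V. Next to another rise stood 12 of the 68, in 5 runs: cyp-34A7, cyp-34A8, cyp-34A9 and cyp-34A10 in a row, and the pairs cyp-13A3 with cyp-13A4, dhs-14 with R05D8.9, T16G1.7 with T16G1.6, and ugt-1 with ugt-2. These are copies of one another in part, and neighbours that share sequence may share reads.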

How the data were processed

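Libraries were made from polyA RNA of Trizol extracts of whole worms with a TruSeq kit that does not mark the strand, per the labels' protocols. The authors deposited 1 table of raw, unnormalized read counts per gene for each library. Per the submitters' processing notes, CASAVA, TopHat, DESeq and the genome build ce10 were used. The sources used here do not state versions, the counting tool, its annotation or its strand setting, so overlapping, antisense and near-identical genes have uncertain counts. Of 45461 gene IDs, 44933 were named from Ensembl's WBcel235 annotation. It is of another build than the counts, so it served for names, overlaps and gene order and no coordinates are given. The 5 category lines closing each table were dropped. In PF libraries 50.6 to 52.1 percent of reads were assigned to no gene and 0.310 to 0.346 percent were ambiguous. Whether the unassigned reads lay outside genes or on the opposite strand of genes was not tested.

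The 8 PF libraries were fitted with treatment and hour as factors in edgeR 4.0.16 (R 4.3.3), with TMM scaling, a filter of 1 CPM in 2 or more libraries, a trended dispersion and the quasi-likelihood F test on 3 residual degrees of freedom. Calls required a Benjamini-Hochberg adjusted p below 0.05. SE values are the fold change over the root of F. Differences between genotypes and the slope over log2 hour were interaction terms with 16 (PL), 10 (N2) and 2 (slope) residual degrees of freedom. Hourly ratios carry a prior count of 1. Genes without reads in 1 treatment have a bound against 3 reads per treatment, and those with 1 to 3 reads a pooled ratio with an exact 95 percent interval, which covers counting error only. The fits were tested on simulated counts, where 7 of 182 calls of the main comparison were false. Those counts had the same dispersion for all genes and no baseline difference by hour or genotype.

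Named genes are the 12 largest called rises and falls (mean of 5 CPM or more in the higher treatment, same direction at 4 hours), up to 4 called members per list by adjusted p, the 5 largest differences and slopes each way, and 13 regulators. Members and the 36 gene lists were chosen with earlier results of these data known. Alternatives were other scaling, filters and a robust fit, DESeq2 1.42.0, no hour term, all 52 libraries, a fold threshold, a replicate block, and leaving out each hour or, for PL at 1 h, 4 libraries.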

Additional observations from a re-analysis of the deposited data

Results flagged for a closer look

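The response to U0126 differed between PF and N2 worms for 3 genes by the test of the difference itself (edgeR, PF minus N2 over 1, 2 and 6 h), T09B9.1 by 5.04 log2, F12E12.1 by 3.40 and F02E8.4 by -3.12. T09B9.1 averaged 1.23 CPM in U0126 and 0.0256 CPM in DMSO in PF worms, against 24.8 and 25.7 CPM in N2 worms. F12E12.1 averaged 2.45 CPM in U0126 and 0.194 CPM in DMSO in PF worms, against 10.6 and 9.27 CPM in N2 worms. F02E8.4 averaged 0.141 CPM in U0126 and 1.28 CPM in DMSO in PF worms, against 98.7 and 95.3 CPM in N2 worms. In N2 the levels with and without U0126 were close for each gene, and in PF the pooled ratios rested on 26 and 1, 50 and 7, and 3 and 47 reads. Their pooled ratios had exact counting intervals of 6.25 to 1561 for T09B9.1, 4.72 to 27.3 for F12E12.1 and 0.0186 to 0.29 for F02E8.4. F12E12.1 was not called with relative log expression scaling. Without the PF pair at 6 h 26 genes were called, among them T09B9.1 but neither F12E12.1 nor F02E8.4. With a replicate block for same-numbered libraries, T09B9.1 was the only call.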

How the results depend on the processing

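Of the 89 calls in PF, all kept their direction under every alternative in which they passed the filter; 4 did not pass the stricter filter, and cyp-13A8 did not without the 2 h or the 6 h pair. Both the counts and the sets of called genes moved. U0126 against DMSO gave 263 higher and 135 lower genes with no filter, 134 and 45 with DESeq2, 28 and 1 with no hour term, 32 higher with a robust fit and 205 and 114 with all 52 libraries. These held 89, 88, 29, 41 and 74 of the 89. Leaving out an hour gave 20 to 120 higher and 2 to 52 lower genes, and the lowest counts were without the 2 h pair. Leaving out a pair also leaves fewer samples in the fit, and no other cause was tested. For PF minus PL, DESeq2 called 1 higher gene and leaving out an hour 0 to 1 (fbf-1 both times). For PF minus N2 there were 1 higher gene with relative log expression scaling, 118 higher and 198 lower with no filter, 54 and 109 with DESeq2, and 2 to 23 lower leaving out an hour, where the counts as reported are 2 and 1. The slope gave 137 higher and 93 lower genes with no filter, 45 lower with DESeq2, 145 and 114 with hour on a linear scale, and 0 to 327 higher and 0 to 428 lower leaving out an hour, an alternative chosen after seeing the data. The cause of these shifts was not tested.

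Fold changes that turned sign were those of genes that were not called. Leaving out an hour gave -0.619 to 0.0199 for dhs-26, -0.0266 to 0.141 for mpk-1, -0.0156 to 0.104 for mek-2 and -0.0649 to 0.0294 for fog-1. The value of fog-1 was -0.0149 with no filter, -0.00763 with the stricter filter and -0.0199 with all 52 libraries.

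With a replicate block for same-numbered U0126 and DMSO libraries, PF minus PL gave 0 calls (1244 at an unadjusted p under 0.05) and PF minus N2 gave 1 higher (T09B9.1) and 0 lower. Same-numbered libraries deviated together at r of 0.741 to 0.867 in PL at 1 h, the only group of 3 pairs, and at -0.04 to 0.408 in the groups of 2 pairs, so the numbers were not taken as pairs. PF has 1 library per group, so no paired analysis beyond the hour was possible there. Depth limits the genes under about 1 CPM, where 1 read more or less changes a fold.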

Other observations

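Genes outside the fixed lists made up 35 of the 73 rises in PF worms, and those given here were picked after their values were seen. T16G1.4, T16G1.6 and T16G1.7, for which no role is given here, had log2 fold changes of 5.88, 4.87 and 3.40. T16G1.6 was at 131, 626, 637 and 1371 CPM in U0126 at 1, 2, 4 and 6 h, against 16.498, 26.4, 28.4 and 6.14 CPM in DMSO. F58B4.5 was at 185, 524, 992 and 1330 CPM in U0126, against 24.9, 23.01, 42.7 and 17.7 CPM in DMSO. The C-type lectin genes went both ways: clec-206 and clec-210 rose by 6.71 and 3.72 log2, while clec-1, clec-7 and clec-51 fell by 1.95, 2.15 and 0.72. The steroid dehydrogenase gene stdh-2 was at 4.40, 19.8, 17.3 and 210 CPM in U0126, against 0.635, 0.108, 0.681 and 0.575 CPM in DMSO, a log2 fold change of 7.09. The transcription factor gene zip-3 had a small and even change, with 87.5, 106, 92.9 and 117 CPM in U0126 and 49.97, 61.0, 44.9 and 58.5 CPM in DMSO (log2 fold change 0.91, SE 0.11, adjusted p 0.0043, edgeR). For zip-3 the log2 fold change was 0.63 in PL, where it was called (adjusted p 0.00134), and 0.17 in N2, where it was not (adjusted p 0.769), and the difference between PF and N2 did not pass (0.64, adjusted p 0.363).

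Among the rises were 4 genes annotated as small nuclear, small nucleolar or PIWI-interacting RNAs, in libraries made from polyA RNA. Each overlaps a protein-coding gene on the opposite strand in the WBcel235 annotation: B0213.23 overlaps cyp-34A7, B0213.18 overlaps cyp-34A8, B0213.24 overlaps cyp-34A9, and 21ur-10882 overlaps ugt-22. The 3 cyp-34A genes rose by 8.75, 2.14 and 2.62 log2, and ugt-22 was not called as an average over the 4 hours (1.92, SE 0.41, adjusted p 0.0809, edgeR). ugt-22 was at 218, 420, 696 and 1365 CPM in U0126, against 174, 160.8, 124 and 126.2 CPM in DMSO. Its ratio changed with the hour, by a slope of 1.18 per doubling (SE 0.09, adjusted p 0.000674), the smallest unadjusted p of all slopes, although no slope was called without the 1 h pair. B0213.18 and B0213.24 had log2 fold changes of 2.39 and 2.43. From which strand these reads came cannot be told apart in these libraries. The rises may therefore count the same transcript under more than 1 gene name, which was not tested.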
